A study of Mus musculus with 12 samples.

Results

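Spp1 (Entrez gene 20750, GRCm38.p6 chromosome 5, bases 104435111 to 104441053) is the mouse gene for osteopontin, and it is described here on all 12 arrays of the series. It was read by 1 probe, found by the gene number in the probe identifier, and it is 1 of 8131 genes that carry a name in this table. The gene was chosen by its own values on these arrays, by treatment and by experiment number. Its levels and differences are therefore given as a description, with no test. The cells were primary granulosa cells, the somatic cells that line and feed the growing follicle, from immature mice aged 21 to 23 days. Each culture came from a pool of 14 to 20 ovaries and stood for 24 h in PBS (the vehicle), in activin A, or in activin A with its binding protein follistatin. The last is called the combined treatment below. There were 4 arrays per treatment, 1 from each of 4 repeats of the whole experiment, and strain, genotype and doses are not given in the sources used here. Pooled ovaries mean that no value belongs to a single animal, and the spread between repeats includes the making of each granulosa cell preparation.

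Osteopontin is a secreted, highly phosphorylated glycoprotein that binds integrins through an RGD motif and CD44 by other contacts. It is known from bone, where it attaches cells to mineral and restrains crystal growth, and from macrophages, T cells and many epithelia. It belongs to the matricellular proteins, which signal to cells from the matrix rather than build it, and to the SIBLING family of bone and tooth matrix proteins. Activin is a ligand of the transforming growth factor beta family that signals through Smad2, Smad3 and Smad4, and follistatin traps it before it reaches its receptors.

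The region around the first base of Spp1 is shown because Smads and the bone regulators of Spp1 bind short DNA motifs, and its letters can be set beside those of other promoters. It is the 300-base RefSeq window on GRCm38.p6, chr5:104434861-104435160, plus strand, which runs from 250 bases before that first base to 50 bases that begin with it. Capitals mark each match, on either strand, to CAGAC (the Smad box), TGTGGT (the Runx core), AGGAAGT (an Ets core), CCAAT or TATAAA.
Spp1 promoter: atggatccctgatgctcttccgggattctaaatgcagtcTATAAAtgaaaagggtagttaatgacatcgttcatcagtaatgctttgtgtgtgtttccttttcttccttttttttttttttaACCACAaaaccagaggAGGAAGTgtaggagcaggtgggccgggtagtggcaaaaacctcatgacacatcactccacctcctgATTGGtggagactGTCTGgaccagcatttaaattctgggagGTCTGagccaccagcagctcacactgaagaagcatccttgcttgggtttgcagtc
The Smad box matched at -33 and -5 (the gene's first base counted as 0, the lowest base of the match given), both on the minus strand. It is a short motif, present in 49.6% of 32851 promoter windows of the same length. The Runx core matched at -128, on the minus strand, and is present in 16.8% of windows. The Ets core matched at -112 (9.35% of windows), CCAAT at -46 (37.4%) and TATAAA at -211 (13.6%). The AP-1 letters TGACTCA had 0 matches here and are in 5.20% of windows. No capital run overlaps another. A second RefSeq window of the gene, chr5:104435942-104436241, had 1 Smad box and none of the other letters. The arrays hold no binding data, so these matches are letters in a window and nothing more.

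Values below are the deposited signals on a log2-like scale, where a difference of 1 is read as a doubling. The highest mean among 32 control spots, 7.31, served as background. In PBS, Spp1 stood at 12.67, 10.86, 11.997 and 10.84 in experiments 1 to 4. With activin it stood at 13.53, 12.004, 13.13 and 11.48. With the combined treatment it stood at 11.46, 9.53, 11.44 and 9.77. Every array was thus more than 2 log2 units above background, and the highest array was activin in experiment 1, the lowest the combined treatment in experiment 2. The group means were 12.54 ± 0.96 (SD, n = 4) with activin, 11.59 ± 0.90 with PBS and 10.55 ± 1.04 with the combined treatment. The SD of each group is about as large as the step to the next, and the PBS range overlaps both other groups. The activin and combined treatment ranges do not overlap, but narrowly: the lowest activin array (11.48, experiment 4) and the highest array of the combined treatment (11.46, experiment 1) come from different experiments. In RNA of whole cultures, fewer cells that express the gene and less RNA per cell cannot be told apart.

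**Figure D1:**
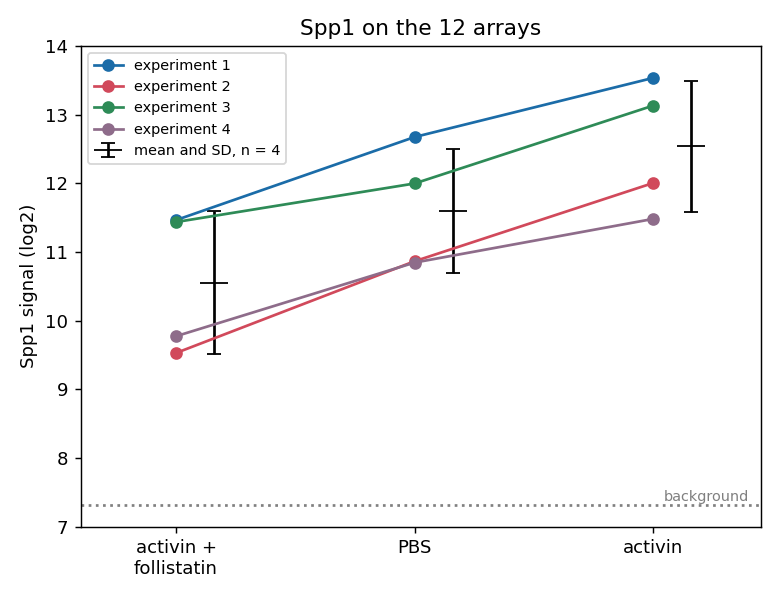
Spp1 signal (log2) on each of the 12 arrays, by treatment, with lines joining the 3 arrays of an experiment, black bars for the mean and SD of 4 arrays, and a dotted line at the background of 7.31. The 4 lines climb from activin plus follistatin through PBS to activin, and experiments 1 and 3 lie above experiments 2 and 4 in every treatment.

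Within an experiment the order of the treatments never changed: activin was highest, PBS was in the middle and the combined treatment was lowest in 4 of 4. This order in all 4 experiments was met by 994 of the 46084 probes tested, 2.16%, and the opposite order by 1063. The gene was chosen by its values by treatment and by experiment number. The percentage is therefore given as a background, and nothing is read from it or from the rank that follows. Among the 255 named genes above background with the same order, the median difference between activin and the combined treatment was 0.67, and Spp1 had 1.99, with 7 of the 255 above it.

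Activin was set against PBS to find transcripts that respond to it. Spp1 was higher with activin by 0.86, 1.14, 1.13 and 0.64 in experiments 1 to 4, a mean of 0.94 or 1.92-fold. Its SE was 0.61 when the 12 arrays were fitted by treatment alone and 0.13 with the experiment as a block. The block removes the difference in level between experiments. Experiment 4 gave the smallest of the 4 differences, 1.55-fold, and experiment 2 the largest, 2.20-fold. Ranked by size, this mean was number 42 from the top of the 8131 named genes. Without the activin array of experiment 1 and with its PBS partner kept, the unblocked difference was 0.61, while leaving out the whole of experiment 1 gave 0.97.

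The combined treatment was set against PBS to see what remains of the response once the antagonist is added. Spp1 did not return to the vehicle level but stood below it, by 1.21, 1.34, 0.56 and 1.07 in experiments 1 to 4. The mean difference was -1.04 (SE 0.61 without the block, 0.13 with it), 2.06-fold lower, and it was number 6 from the lowest of the named genes. Experiment 3 gave the smallest of these differences and experiment 2 the largest. Without the PBS array of experiment 1 the unblocked mean was -0.69. This comparison shares its PBS arrays with the one before, so a low or high PBS array would shift both differences in the same direction. The rise over PBS would then grow in size while the fall below PBS shrank, or the reverse. Their means of 0.94 and -1.04 are of similar size on the 2 sides of PBS.

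Activin was also set against the combined treatment, a pair that uses no PBS array, to see which effects follistatin removes. Spp1 was higher with activin by 2.07, 2.48, 1.70 and 1.71 in experiments 1 to 4. The mean was 1.99 (SE 0.61 without the block, 0.13 with it), 3.96-fold, and number 8 from the top of the named genes. The 4 experiments thus ranged from 3.24-fold to 5.56-fold. When the background of 7.31 was subtracted on the linear scale first, the mean was 2.14, so background compresses this difference little.

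**Figure D2:**
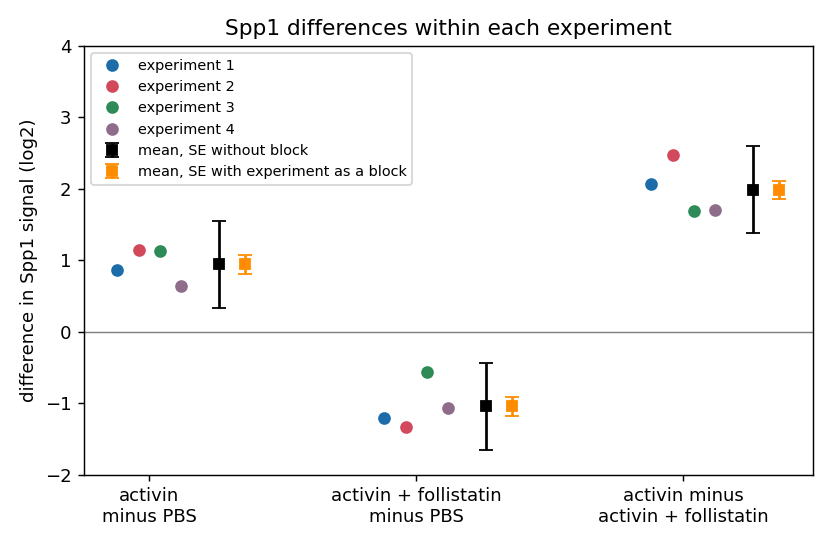
Difference in Spp1 signal (log2) for the 3 comparisons, with a coloured point per experiment and squares for the mean with its SE, black without and orange with the experiment as a block. All points of a comparison lie on the same side of 0, and the orange bars are shorter because the level of each experiment is removed.

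The experiments differed in Spp1 as much as the treatments did. The mean of the 3 arrays was 12.56 in experiment 1, 12.19 in experiment 3, 10.80 in experiment 2 and 10.70 in experiment 4. Experiments 1 and 3 lay above experiments 2 and 4 in each treatment, and the smallest gap between these pairs was 1.13, in activin and in PBS alike, against 1.66 with the combined treatment. Within the pairs the order was less firm: experiments 2 and 4 differed by 0.02 in PBS and experiments 1 and 3 by 0.03 with the combined treatment, less than the SD of the within-experiment differences (0.24 to 0.37). Experiments 2 and 4 also changed places, with experiment 4 the higher of the pair only in the combined treatment.

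Of the summed variance of Spp1 over the 12 arrays, treatment held 48.4%, experiment 49.7% and the rest 1.90%. Over the 4071 named genes with a mean above background, the medians were 29.6%, 31.4% and 24.8%. The SD of its 3 treatment means was 0.99, which 22 of these genes exceeded, and the SD of its 4 experiment means was 0.95, which 4 exceeded. No other of the 4071 genes was as large as Spp1 in both. Spp1 was chosen by its values by treatment and by experiment number, so these ranks are a description and nothing is read from them. In 64 genes the rest was a smaller share than in Spp1. On this scale treatment and experiment added up almost without remainder.

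**Figure D3:**
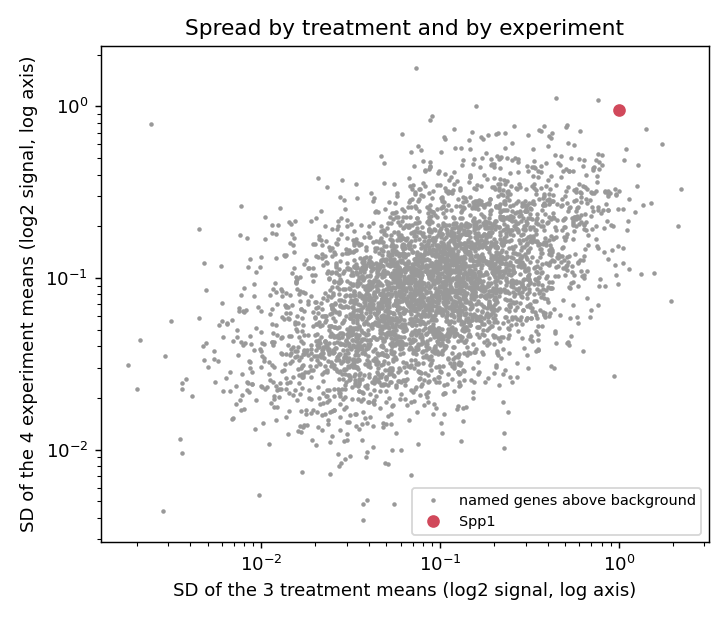
SD of the 4 experiment means against the SD of the 3 treatment means (log2 signal, both axes logarithmic) for the 4071 named genes above background, with Spp1 in red. Spp1 lies at the upper right, with 0.99 by treatment and 0.95 by experiment.

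Beside this difference between experiments, other genes of the ovary moved by experiment too, and their part in the Spp1 level was not tested. Cyp11a1, the enzyme that cleaves the cholesterol side chain in the first step of steroid synthesis, and Star, which carries cholesterol into mitochondria, are named here after their values were seen. Cyp11a1 had experiment means of 13.6, 12.5, 14.5 and 10.7 in experiments 1 to 4, and so was also higher in experiments 1 and 3. With treatment means removed, its Pearson r with Spp1 was 0.81 over the 12 arrays, and that of Star was 0.89 at a signal near background (7.52 to 7.76). Over 4070 named genes above background the 95th percentile of r in this view was 0.81. The epithelial keratin Krt8 had experiment means of 9.35, 8.998, 9.08 and 8.58, and r of 0.77 in the same view. The other epithelial markers were mixed, with r of 0.64 for Krt18, -0.62 for Ovgp1, 0.14 for Upk3b and -0.13 for Krt19. Upk3b and Krt19 had means below background. Dppa3, an oocyte marker, was at 7.12 in each of experiments 2 to 4 and at 7.64 in experiment 1. The arrays of an experiment come from 1 repeat, taken here to share a cell preparation, so these 12 values hold only 4 repeats.

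Genes whose pattern was most like that of Spp1 were named by Pearson r over the 12 arrays, among 4070 named genes above background. The median r was -0.05, and 15 genes were above 0.9 and 15 below -0.9. These r carry no p, since the genes were picked by them and the arrays share treatments and experiments. The highest was Fads2, a fatty acid desaturase (r = 0.96, Spearman rho 0.87). Next were Gcat (0.94), which breaks down a product of threonine, the thrombospondin-repeat membrane protein Thsd7b (0.935), the diacylglycerol lipase Daglb (0.935) and the cholesterol-pathway enzyme Fdps (0.93). They were followed by the secreted protein Metrn (0.93), Nsdhl (0.93), which removes carbons from sterol precursors of cholesterol, and Pagr1a (0.93). At the other end were the kinase Prkd3 (-0.96), the transcription factor Maf (-0.95), the phosphatase Ctdsp2 (-0.94) and the phospholipase Pnpla8 (-0.94). Without the 2 arrays farthest from the Spp1 median (activin of experiment 1 and the combined treatment of experiment 2), the r of these 12 genes lay between 0.89 and 0.94 or between -0.97 and -0.91.

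Fdps shows how close the likeness is and where it ends. Its treatment means were 13.85 ± 0.81 (SD, n = 4) with activin, 13.31 ± 0.66 with PBS and 12.82 ± 0.88 with the combined treatment, and its experiment means were 13.99, 12.95, 13.955 and 12.42 in experiments 1 to 4. It shared the order of treatments and the split of experiments 1 and 3 from 2 and 4, but with smaller steps between treatments. Fads2 moved over a narrow range near background, from 7.66 with the combined treatment to 7.97 with activin, so a high r here says nothing of size.

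**Figure D4:**
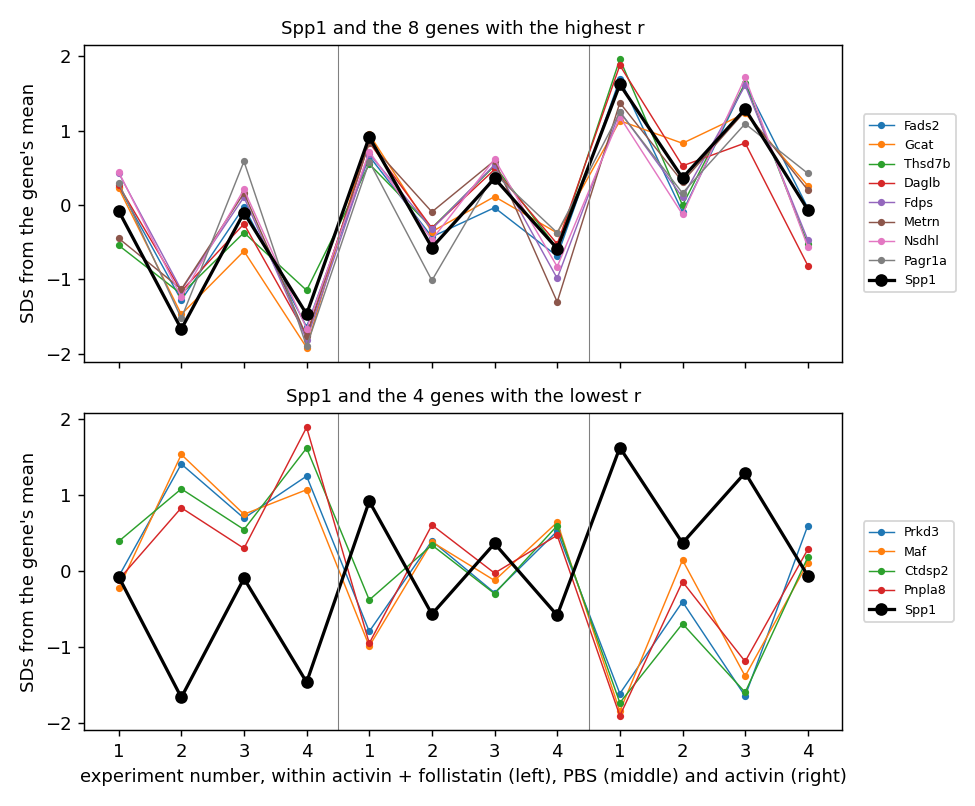
Signals of Spp1 (black) and of the 8 genes with the highest (top) and 4 with the lowest Pearson r (bottom), each as SDs from its own mean over the 12 arrays, ordered by treatment and then by experiment number. The top lines rise and fall with Spp1, and the bottom lines mirror it.

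The response to treatment and the difference between experiments pick different companions. With experiment means removed, the highest r belonged to Amigo2, an adhesion protein (0.99), the mitochondrial chaperonin Hspe1 (0.98), the tubulin Tuba8 (0.98), the mitochondrial ribosomal protein Mrps6 (0.98) and the uridine-cytidine kinase Uck1 (0.97). The lowest belonged to the Polycomb protein Cbx7 (-0.98), the transcription factor Gata3 (-0.98) and Mturn (-0.97). Amigo2 stood at 9.72 with activin, 9.03 with PBS and 8.53 with the combined treatment. High r is common in this view, with 175 genes above 0.9 and 217 below -0.9, against 57 and 35 with treatment means removed. With treatment means removed, the highest r belonged to the immunoproteasome subunit Psmb8 (0.96), Tmem51 (0.96), the histone gene H2bc22 (0.96), the DNA polymerase subunit Pold4 (0.96) and the carrier Slc25a45 (0.95). The lowest were sarcospan, Sspn (-0.95), the transcription factor Mef2c (-0.95) and Rp2 (-0.94). Tmem51 had experiment means of 9.03, 8.36, 8.96 and 8.11, and Sspn the reverse, 7.86, 8.91, 7.94 and 8.76. No gene was named in more than 1 of these views.

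The genes around osteopontin were read in the fit over all 46084 probes, and the choice of Spp1 did not use these tests. The lists of genes were chosen with earlier results of these data known, so their calls are not independent of that choice. In activin versus PBS 2.91% of probes passed an adjusted p of 0.05 (limma with Benjamini-Hochberg adjustment), in the combined treatment versus PBS 0.178%, and in activin versus the combined treatment 7.15%. With the experiment as a block these shares were 6.12%, 1.21% and 11.0%. Of 10 receptor genes for osteopontin, 4 had a named probe, and limma called 0 of them in any comparison without the block. At an unadjusted p below 0.05 there were 2, both in activin versus the combined treatment. The share of all probes at that unadjusted cut is not given, so such counts, here and for the lists below, have no background to be read against. Itgb5, an integrin beta subunit that pairs with alpha V, stood at 11.86 ± 0.26 (SD, n = 4) with PBS, 12.02 ± 0.28 with activin and 11.65 ± 0.12 with the combined treatment. Itgav, the alpha V subunit, lay close to background at 7.46, 7.59 and 7.38. Their differences between activin and the combined treatment were 0.38 ± 0.15 (SE) and 0.22 ± 0.09 (adjusted p = 0.20 each, limma). With the block both were called higher, narrowly (adjusted p = 0.0493 and 0.0497). Itga4 and Cd44 had means below background, so a difference in these receptors was not measurable here.

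Of the other SIBLING proteins (bone sialoprotein and its kin), 0 of 4 had a named probe. Of 11 enzymes that cleave, crosslink or phosphorylate osteopontin, only the macrophage elastase Mmp12 had a named probe, close to background (group means 7.26 to 7.399) and not called by limma in any comparison, also at an unadjusted p of 0.05. Of 11 mineralization genes, 4 were measured, and 0 were called by limma in any comparison, with or without the block and also at an unadjusted p below 0.05. They were the alkaline phosphatase Alpl, the phosphatase Phospho1 and osteocalcin, Bglap, all with means below background, and the calcification inhibitor Mgp, which stood at 7.65 with activin and 7.66 with PBS.

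Of 25 genes known to regulate Spp1 in bone or other tissues, 13 were measured and 7 had a mean above background. In activin versus PBS and in the combined treatment versus PBS limma called 0, with 2 and 3 genes at an unadjusted p below 0.05. With the block 3 were called lower with activin than with PBS, Fosl2, Usf1 and Smad4 (adjusted p = 0.0124, 0.00279 and 0.0457), and Fosl2 was called higher with the combined treatment than with PBS (0.0179). Over all probes 6.12% and 1.21% were called in these comparisons with the block. In activin versus the combined treatment 1 of 13 was called, Fosl2, the AP-1 protein Fra-2, and it was lower with activin: it stood at 12.57 ± 0.20 (SD, n = 4) against 13.17 ± 0.15, a difference of -0.60 ± 0.12 (SE, adjusted p = 0.00679, limma). It moved opposite to Spp1, with activin below PBS below the combined treatment in 4 of 4 experiments. A second, dim Fosl2 probe at background (7.10) was not called. The share of 1 in 13 is near the 7.15% of all probes. With the block, Usf1, an E-box transcription factor, was also lower with activin than with the combined treatment (-0.37 ± 0.10 without the block, where adjusted p = 0.0533). In this comparison 11.0% of all probes were called with the block. Of 3 Usf1 probes, the other 2 were below background and not called. Smad4, the shared partner of the activin-regulated Smads, was called lower only with the block (-0.24 ± 0.16, adjusted p = 0.0151 with it, limma). Runx2 and Ets1, whose core letters stand in the window above, and the vitamin D receptor Vdr had means below background. The AP-1 protein Junb and the homeobox factor Hoxc8 were not called (-0.09 ± 0.05 and 0.06 ± 0.04 in activin minus the combined treatment). Smad4, Runx2, Ets1 and Vdr are named here after their values were seen.

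Matricellular proteins other than osteopontin went both ways. Of 20, 8 were measured and 5 had a mean above background. In activin versus the combined treatment 1 was called higher and 1 lower, and in activin versus PBS 1 was called higher and 0 lower. Over all probes 7.15% and 2.91% were called in these comparisons. Fbln1, a fibulin that associates with elastic and basement membrane matrix, followed the order of Spp1 in 4 of 4 experiments. It read 9.95, 10.18, 10.57 and 9.99 with PBS, 10.81, 10.98, 11.55 and 10.81 with activin, and 9.14, 9.51, 9.62 and 8.92 with the combined treatment in experiments 1 to 4. All 3 groups of Fbln1 are separate, and experiment 3 is the highest in each. It was higher with activin than with the combined treatment by 1.74 ± 0.20 (SE, adjusted p = 2.22e-04, limma), and a second, dimmer probe was called there too (0.87 ± 0.21) but not against PBS (0.42 ± 0.21 with activin, adjusted p = 0.474, and -0.45 ± 0.21 with the combined treatment, adjusted p = 0.717). Its rise over PBS (0.87 ± 0.20, adjusted p = 0.0433) was lost when any of 9 of the 12 arrays was left out, with an adjusted p of up to 0.126, and was kept with the block (7.90e-05). Below PBS with the combined treatment (-0.87 ± 0.20), it was called only with the block (adjusted p = 5.29e-04).

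Ccn1, also known as Cyr61, an integrin-binding matricellular protein that is induced early by growth factors and mechanical stress, ran the other way. It read 8.95, 9.44, 9.06 and 9.48 with PBS, 8.13, 9.002, 8.15 and 8.60 with activin, and 9.08, 9.61, 9.19 and 9.92 with the combined treatment in experiments 1 to 4. Activin was lowest in every experiment, and experiments 1 and 3, where Spp1 was high, were the low ones for Ccn1 in each treatment. Ccn1 was lower with activin than with the combined treatment by 0.98 on the log2 scale (-0.98 ± 0.23 SE, adjusted p = 0.0212, limma). The call was lost when the activin array of experiment 1 or 3 or the combined-treatment array of experiment 2 or 4 was left out (adjusted p up to 0.0663). Against PBS its difference of -0.76 ± 0.23 was called only with the block (adjusted p = 9.11e-04). Its r with Spp1 was -0.90 over the 12 arrays. Thbs1, a thrombospondin that binds integrins and can activate latent TGF-beta, is named after its values were seen. It had r of -0.81 with Spp1 and -0.89 with treatment means removed, and was not called (-0.34 ± 0.34 between activin and the combined treatment, adjusted p = 0.762). The tenascins Tnxb and Tnn, near or below background, were not called.

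**Figure D5:**
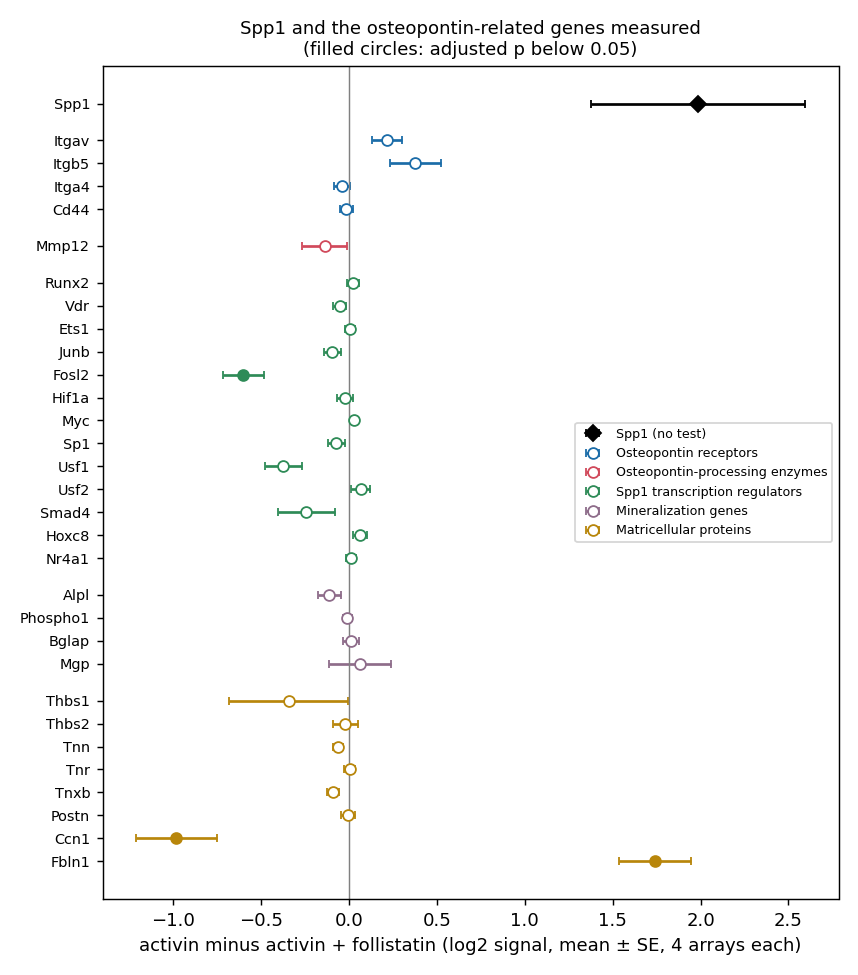
Difference between activin and activin plus follistatin (log2 signal, mean ± SE from 4 arrays each, without the block) for Spp1 and the 30 measured genes of the osteopontin lists, with filled circles for an adjusted p below 0.05. Fosl2 and Ccn1 lie to the left and Fbln1 to the right at 1.74, while Spp1, shown without a test, is at 1.99.

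Osteopontin is an abundant product of macrophages, so markers of this and other cell types were read beside it. For the labelled cell type, 3 of 15 granulosa genes had a named probe, and all were above background. Amhr2, the receptor of anti-Müllerian hormone, the transcription factor Wt1 and Fst, which encodes follistatin, had means over the 12 arrays of 12.69, 9.38 and 10.67. Of the stromal and theca markers only Aldh1a1 was above Amhr2, at 14.04, so these levels alone do not tell the cell types apart. Fst, a known activin target, was called higher with activin than with PBS, by 2.52 ± 0.19 (SE, adjusted p = 3.13e-05, limma). Wt1 was called lower with activin than with both other groups only with the block (adjusted p = 0.0196 against PBS and 2.10e-04 against the combined treatment). Of 21 macrophage markers, 10 were measured. The defining ones Csf1r, Cd68, Itgam, Ptprc, C1qa and C1qb had means below background, while Lyz2, Fcgr3 and Cybb (7.37, 7.35 and 7.33) were barely above it, and Gpnmb was high. The mean of the list ran from 7.402 to 7.56 over the PBS arrays, from 7.27 to 7.41 with activin and from 7.44 to 7.70 with the combined treatment. Without Gpnmb, a choice made after its values were seen, the list ran from 7.12 to 7.18 with PBS, from 7.15 to 7.17 with activin and from 7.09 to 7.23 with the combined treatment, so the order of the list mean rests on that gene. Lyz2, lysozyme, was at 7.70 in experiment 4 and 7.22 to 7.30 in the others. T cell, oocyte and bone cell markers had 1, 1 and 2 measured genes with means below background, and 0 called by limma, also at an unadjusted p of 0.05. Over all probes 7.15% or fewer were called in a comparison without the block, so 0 calls among so few genes say little.

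Gpnmb, also called osteoactivin, was the only macrophage marker called without the block, and it mirrored Spp1. That is 1 of 10 measured in activin versus the combined treatment, near the 7.15% of all probes called there. Gpnmb is a transmembrane glycoprotein of macrophages, osteoclasts and melanocytes that is also made by other cells. It stood at 9.90, 10.16, 9.70 and 10.94 with PBS, at 8.77, 9.20, 8.35 and 9.67 with activin, and at 10.39, 11.60, 10.90 and 11.87 with the combined treatment in experiments 1 to 4. Activin was lowest and the combined treatment highest in 4 of 4 experiments, and experiments 2 and 4 were above 1 and 3 in each treatment. The difference between activin and the combined treatment was -2.19 ± 0.37 (SE, adjusted p = 0.00326, limma), 4.56-fold. Against PBS it was -1.17 ± 0.37 with activin and 1.014 ± 0.37 with the combined treatment, called only with the block (adjusted p = 7.60e-04 and 0.00899). Its r with Spp1 was -0.91. A second Gpnmb probe lay below background (7.08) and was not called. The Fc receptor Fcgr3, near background, was called only with the block, higher with activin than with the combined treatment by 0.26 ± 0.07 (adjusted p = 0.0269, limma).

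The stromal and theca markers were mixed. Of 13, 8 were measured and 5 had a mean above background. Of these, 3 were called lower with activin than with the combined treatment, Aldh1a1, Dcn and Col3a1, and 0 higher. Over all probes 7.15% were called in this comparison and 2.91% in activin versus PBS. Aldh1a1 and Col3a1 were also called lower with activin than with PBS, and Dcn with the block (adjusted p = 0.00668). Aldh1a1, which makes retinoic acid, stood at 12.65 with activin, 14.48 with PBS and 15.00 with the combined treatment. The mean of the list was 8.41 to 8.73 with PBS, 8.01 to 8.15 with activin and 8.70 to 9.02 with the combined treatment. This order rests mainly on the 3 called genes, since the median difference of the 8 members was -0.05 in activin minus the combined treatment. With the block the hedgehog effector Gli2 was called higher with activin than with the combined treatment (0.23 ± 0.10, adjusted p = 0.0134, limma) and than with PBS (0.0443). The theca marker Insl3 and the collagen gene Col1a2 were below background. Of 4 endothelial markers Robo4 was called lower with activin (-0.80 ± 0.10, adjusted p = 2.93e-04, limma) than with the combined treatment. With the block it was also called lower with activin than with PBS and higher with the combined treatment than with PBS (adjusted p = 0.0409 and 0.00775). Egfl7 ran with Spp1, 0.19 ± 0.06 higher with activin than with the combined treatment and higher in 4 of 4 experiments, and was not called (adjusted p = 0.0685, and 0.0525 with the block). Of 5 epithelial markers 0 were called, also at an unadjusted p of 0.05. The part of these cells in the Spp1 signal was not tested.

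Spp1 is also known from the ovulating and luteinizing follicle, and that list was read last. Of 21 such genes, 15 were measured and 9 had a mean above background. In activin versus the combined treatment, where 7.15% of all probes were called, 3 were called higher and 1 lower. In activin versus PBS, where 2.91% of all probes were called, 3 were higher and 0 lower. With the block, where 11.0% and 6.12% of all probes were called, these counts were 5 and 2, and 3 and 2. Ptgs2 and Ptx3 joined the higher ones against the combined treatment, Runx1 the lower ones in both, and Prlr the lower ones against PBS. In the combined treatment versus PBS limma called 0, with 1 gene at an unadjusted p below 0.05. With the block it called Prlr higher. The 3 that rose in both were Rgs2, a brake on G-protein signalling, and the transcription factors Cebpb and Cebpa, by 1.09 ± 0.07, 1.22 ± 0.17 and 0.60 ± 0.10 (SE) over the combined treatment. A second, dim Cebpa probe was not called. The call of Cebpb over PBS (adjusted p = 0.0149, limma) was lost without the PBS array of experiment 4 (adjusted p = 0.0511). Cebpb had r of 0.81 with Spp1. With the combined treatment it stood 0.30 below PBS, which was not called (adjusted p = 0.791), and Cebpa differed by 0.00, where Spp1 was lower by 1.04. The prolactin receptor Prlr was lower with activin than with the combined treatment (-1.59 ± 0.35, adjusted p = 0.0153, limma), and its second probe, below background, was not called. Lhcgr, the luteinizing hormone receptor that marks preovulatory granulosa cells, had means below background in every treatment.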

How the data were processed

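RNA of 12 cultures was amplified by a T7-based method and hybridized to Illumina Sentrix Mouse-6 arrays. The deposited table holds log2 or log2-like signals that the authors had put on a common scale, as their medians show; the method is not given in the sources used here. The submitters' processing notes name lumi 1.2.0 without its role. The values run from 6.75 to 16.2, with array medians of 7.17 to 7.18 and correlations between arrays of 0.967 to 0.994. They hold no detection calls, and differences near background are understated. The number of arrays limits the precision.

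Probe identifiers with a zero-padded number were read as mouse Entrez gene numbers on the RefSeq table of GRCm38.p6. The files do not state this. Of 11897 such numbers 82.6% were in the table. In the 7-digit form that Spp1 has, 21 probes so named for ribosomal proteins had a median of 12.9 and 282 for olfactory receptors 7.09. With RefSeq transcript accessions in some identifiers, 9841 probes of 8131 genes were named, the brightest probe stood for a gene, and 36243 probes had no name.

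The 46084 probes other than control spots were fitted with limma 3.58.1 in R 4.3.3, with 3 group means, two-sided moderated statistics and Benjamini-Hochberg adjustment over all probes. The script was tested on simulated data. Arrays with the same experiment number, which the series' design gives to 1 repeat, had residual correlations of 0.331 to 0.801 over probes above background. Other pairs had -0.632 to 0.406, so the ranges overlap, and the pairing is taken from the design. Over all probes the consensus correlation within an experiment was 0.0791. The block is given beside the list members whose call it changes. Where nothing says that cultures were independent beyond the pools, p-values measure the spread between these cultures.

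Spp1 and the gene lists were chosen with earlier results of these data known. Genes were named as those with the highest and lowest r (8 and 4 over all arrays, 5 and 3 with experiment or treatment means removed), as list members called or up to 4 with the smallest p, and as the 3 brightest markers of each cell type. The alternatives tried were a fixed or random block, array weights, centring or quantile normalization, filters on dim probes, background subtraction, and arrays or experiments left out.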

Additional observations from a re-analysis of the deposited data

Results flagged for a closer look

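No Spp1 array stood apart from the other 3 of its treatment. Of 228 groups of 4 arrays examined, over Spp1 and the genes named, 11 had an array whose gap to the nearest other exceeded Dixon's 95% critical share of the range, and chance gives about 1 in 20. In experiment 1 the oocyte marker Dppa3 read 7.46 with PBS, 7.66 with activin and 7.81 with activin plus follistatin, against at most 7.09, 7.17 and 7.19 on the other arrays of each treatment. In experiment 4 the macrophage marker Lyz2 read 7.55 with PBS and 7.94 with activin plus follistatin, against at most 7.32 and 7.22. Itga4, at background, read 7.19 in PBS of experiment 4 and 7.02 in activin of experiment 3. Ovgp1 read 7.41 in PBS of experiment 1, against at least 7.49. With activin plus follistatin, Tuba8 read 7.41 in experiment 1 against at least 7.85, Cbx7 read 8.40 in experiment 4 against at least 8.55, and Tnxb read 7.43 in experiment 2 against at most 7.37.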

How the results depend on the processing

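Over 22 alternatives the sign of each Spp1 difference held, with 0.61 to 1.30 for activin versus PBS, -1.35 to -0.69 for the combined treatment versus PBS and 1.65 to 2.34 for activin versus the combined treatment, the ends coming from single arrays left out. No value from another Spp1 probe could be had, since 1 probe reads the gene. As a replicate block, fixed, the experiment gave 2820, 557 and 5087 called probes for the 3 comparisons in this order, against 1342, 82 and 3296 without it. As a random block it gave 132 for the second, as did the filter on mean signal, and the filter on 4 or more arrays gave 129. Leaving out arrays or experiments gave 625 to 1356, 24 to 107 and 2091 to 3268 probes. For activin versus PBS the count was 888 without the PBS array of experiment 3, and 680, 733 and 625 without experiments 1, 2 and 3. For the combined treatment versus PBS it was 47 with PBS of experiment 2 dropped and 47 with the combined array of experiment 3 dropped, 48 with PBS of experiment 3 dropped, 50 with the combined array of experiment 1 dropped, and 41, 29, 24 and 54 without experiments 1 to 4. The 2091 came without experiment 2. Fewer arrays were fitted in these, and other causes were not tested. Of the 141 named list results, 20 were called with the block alone, where calls over all probes rose too, and quantile normalization added Usf1. Of 28 likeness values, 3 differed by over 0.1 with Spearman rho (H2bc22 0.832, Sspn -0.804 and Mef2c -0.776), and 0 without the 2 farthest arrays. The mean of the macrophage markers was -0.20 in activin minus the combined treatment and 0.0223 without Gpnmb, a setting chosen after seeing the data. Signals near 7.31 limit the lists with members at or below background.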
